A study of Mus musculus with 12 samples.

Results

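The integrated stress response regulators described here are 10 mouse genes, Atf4, Atf5, Ddit3, Atf3, Cebpb, Cebpg, Nupr1, Trib3, Ppp1r15a and Chac1, taken by symbol from a gene count table of 54532 rows. The 10 symbols matched 11 rows, because Ddit3 names a further short row of 105 bases that had 0 counts in all 12 libraries, and 10 rows had enough counts to be tested among 16038 genes. RNA came from C2C12 cells, a mouse myoblast line, at 100% confluency. The dishes received the perfluorinated surfactant PFOS (perfluorooctanesulfonate) at 0, 2 or 6 µM for 24 h, with 4 libraries per dose, and no genetic change is named for any group. Whether the 4 libraries per dose were separate cultures is not stated, and p-values then cover only their spread, which may be technical.

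The integrated stress response begins when a kinase phosphorylates the translation initiation factor eIF2α. General translation then falls, while the mRNA of the transcription factor ATF4 is translated more, and ATF4 acts with C/EBP and other bZIP partners on genes of amino acid supply, redox balance and cell fate. The pathway contains its own brake, since ATF4 and CHOP raise Ppp1r15a (GADD34), which directs a phosphatase to eIF2α. RNA levels measure the transcriptional side of this pathway and not the phosphorylation of eIF2α or the amount of ATF4 protein.

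Promoter stretches of 3 regulators are shown because they hold letters that bZIP factors of this pathway are known to bind, and because they belong to the 2 regulators with the highest fold changes and to the 1 that fell. Capitals mark the matched motifs, positions count back from the RefSeq transcription start, and the letters are from RefSeq on GRCm38.p6, each on the strand of the gene. The Ppp1r15a stretch is chr7:45526269-45526328 (minus strand, -60 to -1), that of Atf3 is chr1:191183414-191183473 (minus strand, -140 to -81), and that of Chac1 is chr2:119350992-119351071 (plus strand, -250 to -171).
Ppp1r15a: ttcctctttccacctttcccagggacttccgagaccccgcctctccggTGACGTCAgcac
Atf3: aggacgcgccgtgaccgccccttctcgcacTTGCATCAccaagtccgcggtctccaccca
Chac1: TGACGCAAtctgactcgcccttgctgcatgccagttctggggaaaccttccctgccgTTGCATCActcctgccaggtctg
The Ppp1r15a stretch holds the palindromic cAMP response element TGACGTCA at -12 to -5. The Atf3 stretch holds TTGCATCA at -110 to -103, the reverse complement of a C/EBP-ATF response element core, searched as TGATGNAA. The Chac1 stretch holds the same TTGCATCA at -193 to -186 and, at -250 to -243, TGACGCAA, which joins part of a cAMP response element to part of a C/EBP site. Motifs were searched on both strands in windows of 300 bases, 250 before and 50 after each start. All 10 regulators had a window, and there were 11 windows because Atf5 had more than 1 start. The windows of Atf3 and Nupr1 lie inside the gene spans given below, downstream of their 5′ ends. Which start these cells use was not tested. The TGATGNAA core was found for 4 of them, Atf3, Chac1, Nupr1 (also TTGCATCA at -110 to -103) and Trib3 (TTACATCA at 15 to 22, after the start), and in 3.97% of all 32851 windows. TGACGTCA was found for Ppp1r15a alone among the regulators and in 1.79% of all windows, and TGACGCAA for Chac1 alone and in 0.490%. The AP-1 motif TGANTCA was found for Ddit3 alone, at -242 to -236, and in 7.81% of all windows. These are matches of letters and not measured binding sites.

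Library totals ranged from 30.2 to 50.4 M counts, and mitochondrially encoded genes took 1.87% to 2.57% of them. Myoblast markers summed to 544 to 627 CPM (counts scaled to library size, per 1 M) at 0 µM, 546 to 587 at 2 µM and 525 to 574 at 6 µM, while Pax7, a satellite cell marker, stayed under 1 CPM. Of the 7 myoblast markers, 2 fell at 6 against 0 µM by edgeR, Myod1 (log2 fold change -0.38, adjusted p = 0.00333) and Cdh15 (-0.26, adjusted p = 0.0369). Of 7 myotube markers, 3 (Myog, Myh3 and Acta1) were lower at 6 µM, with sums of 40.5 to 56.4 CPM at 0 µM, 29.5 to 42.7 at 2 µM and 25.8 to 33.2 at 6 µM. Of 5 fibroblast markers, 1 (Col14a1) was lower at both doses, with sums of 48.5 to 58.4, 37.6 to 41.1 and 37.0 to 37.8 CPM, and Tcf21 was at 0. The adipocyte sum stayed at or under 0.221 CPM, with Adipoq at 0, and the macrophage sum at or under 1.58 CPM. The endothelial sum was higher, at 4.92 to 6.54 CPM at 0 µM, 4.50 to 6.90 at 2 µM and 5.46 to 7.17 at 6 µM. Of its markers, Cdh5 alone was above 1 CPM, with a mean of 5.64 CPM at 0 µM, and it was not called at either dose. The part of these marker shifts in the results below was not tested. In bulk RNA, fewer cells of a type and less RNA per cell cannot be told apart.

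Per kilobase of gene model and without PFOS, Atf4 had the highest level of the regulators, at 392 ± 18.1 CPM per kb (SD, n = 4), above 99.5% of the tested genes. Atf5 followed at 154 ± 17.9, then Chac1 at 107 ± 4.61 and Trib3 at 103 ± 5.31 CPM per kb. Ddit3 stood at 55.7 ± 4.53, Nupr1 at 31.6 ± 2.62, Cebpg at 27.2 ± 2.98 and Cebpb at 24.7 ± 3.84 CPM per kb. Ppp1r15a at 12.4 ± 1.17 and Atf3 at 11.7 ± 1.24 CPM per kb were the lowest and still above 74.3% and 72.8% of tested genes. The libraries of neighbours in this order overlapped for Chac1 and Trib3, for Nupr1 and Cebpg, for Cebpg and Cebpb, and for Ppp1r15a and Atf3. The pathway's genes were thus measured at 683 to 51636 counts per library, which limits counting error for each of them.

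Most of the regulators rose at 2 µM PFOS, and none was called higher at 6 than at 2 µM. At 2 against 0 µM, 6 of 10 rose and none fell by edgeR's quasi-likelihood test (Benjamini-Hochberg adjusted p under 0.05), where 1.61% of all tested genes rose and 0.742% fell. The 6 were Atf4, Atf3, Trib3, Ppp1r15a, Cebpg and Nupr1, and the median log2 fold change of the 10 was 0.26, beside -0.01 over all genes. At 6 against 0 µM, 3 rose (Atf4, Atf3 and Ppp1r15a) and Chac1 fell, where 4.58% of all genes rose and 3.66% fell, and the median was 0.09 beside -0.02. The 2 comparisons share the 0 µM libraries. Directly between the doses, none was called higher and 2 (Chac1 and Nupr1) were lower at 6 than at 2 µM, where 0.561% of all genes were higher and 0.549% lower, and the median was -0.18 beside -0.0046. The libraries of the compared doses did not overlap for 6 regulators at 2 against 0 µM, all higher (4.77% of all genes higher, 3.6% lower), for 3 higher and 1 lower at 6 against 0 µM (6.39% and 6.15%), and for 4 lower at 6 against 2 µM (4.45% and 4.15%). The 6 were Atf4, Atf3, Ddit3, Trib3, Ppp1r15a and Nupr1, and the 4 were Ppp1r15a, Chac1, Cebpg and Nupr1. Without 2 µM replicate 4, the 2 µM library with the highest level for 7 regulators, 3 instead of 6 rose at 2 µM, and the calls over all genes, in either direction, went from 377 to 106. Without both that library and 6 µM replicate 4, which was the lowest of its dose for 9 regulators, 2 rose at 2 µM (Atf3 and Ppp1r15a), none was called lower at 6 than at 2 µM, and 79 genes were called at 2 against 0 µM in all. That pair was chosen after the regulators' values had been seen.

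**Figure D1:**
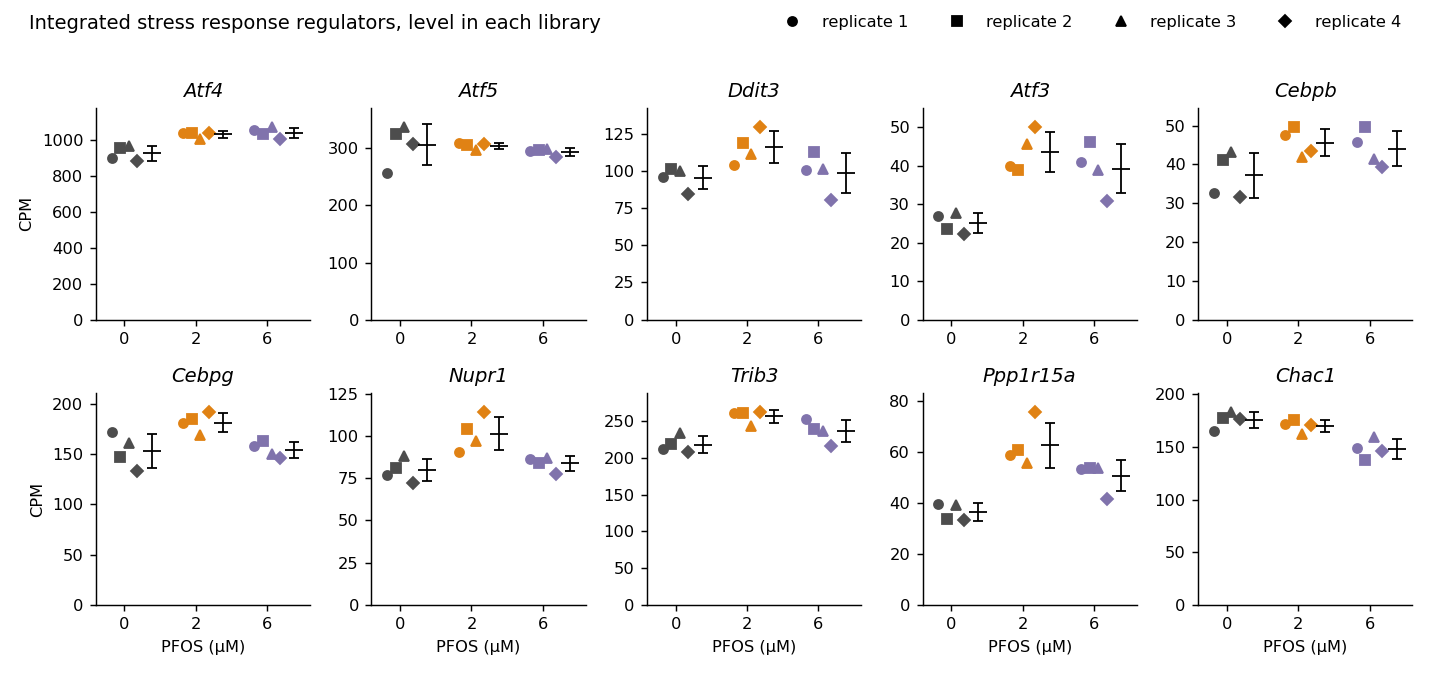
Level of each regulator in CPM (vertical axis, from 0) in every library at 0, 2 and 6 µM PFOS (horizontal axis), with a symbol per replicate number and the mean and SD of the 4 libraries in black. Atf3 and Ppp1r15a stand highest above their untreated libraries, and 6 µM replicate 4 is the lowest library of its dose for 9 of 10 genes.

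Ppp1r15a, the regulatory subunit that brings protein phosphatase 1 to eIF2α, had 39.6, 33.7, 39.4 and 33.5 CPM in replicates 1 to 4 without PFOS, 58.9, 60.7, 55.7 and 75.7 CPM at 2 µM, and 53.3, 54.0, 54.0 and 41.7 CPM at 6 µM. Every treated library was above every untreated one, and every 2 µM library was above every 6 µM library. The gene rose 1.72-fold at 2 µM (log2 fold change 0.78, SE 0.0936, adjusted p = 8.64e-05 by edgeR's quasi-likelihood test) and 1.39-fold at 6 µM (log2 fold change 0.48, SE 0.0939, adjusted p = 0.00231). Between the doses the log2 difference was -0.31 (95% interval -0.50 to -0.12), which did not pass (adjusted p = 0.122 by edgeR). Ppp1r15a (ENSMUSG00000040435) spans chromosome 7, 45522916 to 45526268, minus strand, in GRCm38 coordinates. All 10 regulators are annotated as protein-coding, and their positions below are on the same build.

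Atf3, a bZIP factor that is induced in many stresses and often acts as a repressor, had 26.9, 23.5, 27.8 and 22.3 CPM without PFOS, 40.0, 38.8, 45.8 and 50.01 CPM at 2 µM, and 41.0, 46.2, 38.9 and 30.9 CPM at 6 µM. No treated library overlapped the untreated ones, and the 2 treated doses overlapped each other. It rose 1.74-fold at 2 µM (log2 fold change 0.80, SE 0.104, adjusted p = 0.000163 by edgeR's quasi-likelihood test) and 1.56-fold at 6 µM (0.64, SE 0.104, adjusted p = 0.000351). The log2 difference between the doses was -0.15, with a 95% interval of -0.36 to 0.06. Atf3 (ENSMUSG00000026628) spans chromosome 1, 191170296 to 191218039, minus strand. The calls of Atf3 and Ppp1r15a against 0 µM held under all 22 alternative fits.

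Atf4, the central transcription factor of the response, had 895, 955, 965 and 879 CPM without PFOS, 1037, 1034, 1003 and 1039 CPM at 2 µM, and 1052, 1032, 1068 and 1003 CPM at 6 µM. All 8 treated libraries were above the 4 untreated ones, and the treated doses overlapped. The rise was 1.11-fold at 2 µM (adjusted p = 0.0245 by edgeR's quasi-likelihood test) and 1.12-fold at 6 µM (adjusted p = 0.00443), or 0.16 and 0.17 on the log2 scale, each with an SE of 0.0363. The call at 2 µM was lost in 6 of 22 alternative fits, among them those without 0 µM replicate 4 or without 2 µM replicate 1, 2 or 4, and over the 22 the adjusted p reached 0.119. The call at 6 µM was lost only without the 3 libraries that deviated most over all genes (adjusted p = 0.0863 by edgeR). Atf4 (ENSMUSG00000042406) spans chromosome 15, 80255184 to 80257541, plus strand.

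Atf5, a close relative of ATF4 that is linked to mitochondrial stress, did not pass the test at either dose. It ranged from 256 to 337 CPM without PFOS, from 297 to 309 CPM at 2 µM and from 284 to 299 CPM at 6 µM. Its log2 fold changes were -0.01 (95% interval -0.13 to 0.11) at 2 µM and -0.06 (-0.18 to 0.06) at 6 µM. Without 0 µM replicate 1, the library at 256 CPM, Atf5 was called lower at 6 µM (log2 fold change -0.14, adjusted p = 0.032 by edgeR). The 5′ end of Atf5 (ENSMUSG00000038539, chromosome 7, 44812256 to 44816658, minus strand) overlaps the opposite-strand gene Nup62 (44816088 to 44830812). Over their whole gene models, of which only these ends overlap, Nup62 had a mean of 5805 counts beside 12513 for Atf5. The strand setting of the counting is not given in the sources used here.

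Ddit3 encodes CHOP, a C/EBP family factor known for its part in stress-induced cell death. It had 95.99, 101.6, 100.0 and 84.4 CPM without PFOS, 104, 119, 112 and 129 CPM at 2 µM, and 100.3, 112, 101 and 80.2 CPM at 6 µM. All 2 µM libraries were above the untreated ones, while the 6 µM libraries overlapped both. The log2 fold change was 0.28 (SE 0.0814, adjusted p = 0.0755 by edgeR's quasi-likelihood test) at 2 µM and 0.05 (adjusted p = 0.808) at 6 µM. The 2 µM change passed in 6 of 22 alternative fits, DESeq2 among them. The 3′ end of Ddit3 (ENSMUSG00000025408, chromosome 10, 127290774 to 127296288, plus strand) overlaps the opposite-strand gene Mars (127296221 to 127311786). Over their whole gene models, of which only these ends overlap, Mars had a mean of 12697 counts beside 4321 for Ddit3.

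Cebpg, whose product pairs with ATF4, had 172, 147, 161 and 133 CPM without PFOS, 181, 184, 169 and 191 CPM at 2 µM, and 158, 163, 149.9 and 146 CPM at 6 µM. It rose 1.18-fold at 2 µM (log2 fold change 0.24, SE 0.0619, adjusted p = 0.0365 by edgeR's quasi-likelihood test) although 1 untreated library lay within the range of the 2 µM libraries, and at 6 µM it was back at the untreated level (0.01, 95% interval -0.12 to 0.14). The 2 µM call was lost in 8 of 22 alternative fits, 6 of which left out a single library. Cebpb, which encodes another C/EBP partner of ATF4, ranged from 31.7 to 43.1 CPM without PFOS, from 41.9 to 49.6 CPM at 2 µM and from 39.4 to 49.5 CPM at 6 µM. Its log2 fold changes of 0.29 (adjusted p = 0.108 by the same edgeR test) and 0.24 (adjusted p = 0.117) did not pass. Cebpg (ENSMUSG00000056216) spans chromosome 7, 35046422 to 35056573, minus strand, and Cebpb (ENSMUSG00000056501) spans chromosome 2, 167688915 to 167690418, plus strand. Cebpb overlaps in part the opposite-strand gene Tmem189 (167642608 to 167689822). Over their whole gene models, the means were 1772 counts for Cebpb and 1113 for Tmem189.

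Nupr1, a small stress-induced chromatin-associated protein gene, had 76.9, 81.2, 87.8 and 72.3 CPM without PFOS, 90.5, 104, 97.02 and 114 CPM at 2 µM, and 86.3, 83.9, 87.0 and 77.6 CPM at 6 µM. The 2 µM libraries lay above all others, and the 6 µM libraries fell within the untreated range. Nupr1 rose 1.27-fold at 2 µM (log2 fold change 0.35, SE 0.0669, adjusted p = 0.00776 by edgeR's quasi-likelihood test), had a log2 fold change of 0.07 at 6 µM (adjusted p = 0.589), and was 1.21-fold lower at 6 than at 2 µM (adjusted p = 0.0456). The 2 µM call was lost only without replicate 4 of both treated doses (adjusted p = 0.0533 by edgeR), while the call between the doses was lost in 11 of 22 alternative fits. Nupr1 (ENSMUSG00000030717) spans chromosome 7, 126623249 to 126630861, minus strand.

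Trib3, a pseudokinase that restrains ATF4 and CHOP and is itself their target, had 212, 219.9, 234 and 208 CPM without PFOS, 261, 261, 244 and 262 CPM at 2 µM, and 254, 239.97, 237 and 217 CPM at 6 µM. All 2 µM libraries were above the untreated ones, and the 6 µM libraries overlapped both. It rose 1.18-fold at 2 µM (log2 fold change 0.23, SE 0.0488, adjusted p = 0.0118 by edgeR's quasi-likelihood test), and its log2 fold change at 6 µM was 0.12 (adjusted p = 0.159). Without 2 µM replicate 4, alone or with 6 µM replicate 4, the 2 µM call was lost, with adjusted p values up to 0.0596 by edgeR. Trib3 (ENSMUSG00000032715) spans chromosome 2, 152337422 to 152344032, minus strand.

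Chac1, an enzyme that degrades glutathione and a known target of ATF4 and CHOP, went the other way. It had 165, 178, 183 and 177 CPM without PFOS, 172, 175, 162 and 171 CPM at 2 µM, and 149, 138, 159.9 and 146 CPM at 6 µM. Every 6 µM library was below every other library, and the 0 and 2 µM libraries overlapped. Chac1 fell 1.18-fold at 6 against 0 µM (log2 fold change -0.24, SE 0.0482, adjusted p = 0.0023 by edgeR's quasi-likelihood test), and this call held in all 22 alternative fits. It was also 1.15-fold lower at 6 than at 2 µM (adjusted p = 0.0456), a call lost in 12 of the 22. The number of regulators called between the doses was 2 in the full fit, 0 without 0 µM replicate 2, any of 2 µM replicates 2, 3 and 4, or 6 µM replicate 1 or 4, and 1 without 0 µM replicate 3, 2 µM replicate 1, or 6 µM replicate 2 or 3. Chac1 (ENSMUSG00000027313) spans chromosome 2, 119351229 to 119354381, plus strand.

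The shape over dose was tested as the distance of the 2 µM level from the straight line drawn in dose between 0 and 6 µM, on the log2 scale. Of the 10 regulators, 5 lay above that line by edgeR's quasi-likelihood test, and none lay below it, where 0.374% of all tested genes lay above and 0.0624% below. The distance was 0.62 (95% interval 0.46 to 0.79) for Ppp1r15a, with an adjusted p of 0.000454, and 0.58 (0.40 to 0.77) for Atf3, with an adjusted p of 0.00198. It was 0.32 (0.20 to 0.45) for Nupr1 with an adjusted p of 0.0108. Cebpg at 0.24 (adjusted p = 0.0469 by edgeR) and Trib3 at 0.20 (adjusted p = 0.0432) passed narrowly, and each of these calls was lost in 12 of 22 alternative fits. Nupr1 lost its call in 3 of them, Atf3 and Ppp1r15a in none. Ddit3 at 0.27 (adjusted p = 0.107), Cebpb at 0.21 (0.313) and Atf4 at 0.10 (0.207) did not pass by edgeR. By their means, 7 regulators were highest at 2 µM, as were 27.6% of all tested genes. Of these 7, Nupr1 alone was called lower at 6 than at 2 µM, a call lost in 11 of 22 alternative fits. Lying above the line does not by itself tell a peak at 2 µM from a level that is kept to 6 µM. The Atf4 mean differed by 0.16 from 0 to 2 µM and by 0.01 from 2 to 6 µM on the log2 scale, the latter with a 95% interval of -0.06 to 0.09 and an adjusted p of 0.925 by edgeR. The means of Atf5 and Chac1 were lowest at 6 µM and highest at 0 µM. The number above the line was 2 without 2 µM replicate 2, without 2 µM replicate 4 or without replicate 4 of both treated doses. It was 3 when 0 µM replicate 2 or 4, 2 µM replicate 1, or 6 µM replicate 3 or 4 was left out, and with doses taken as equally spaced.

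**Figure D2:**
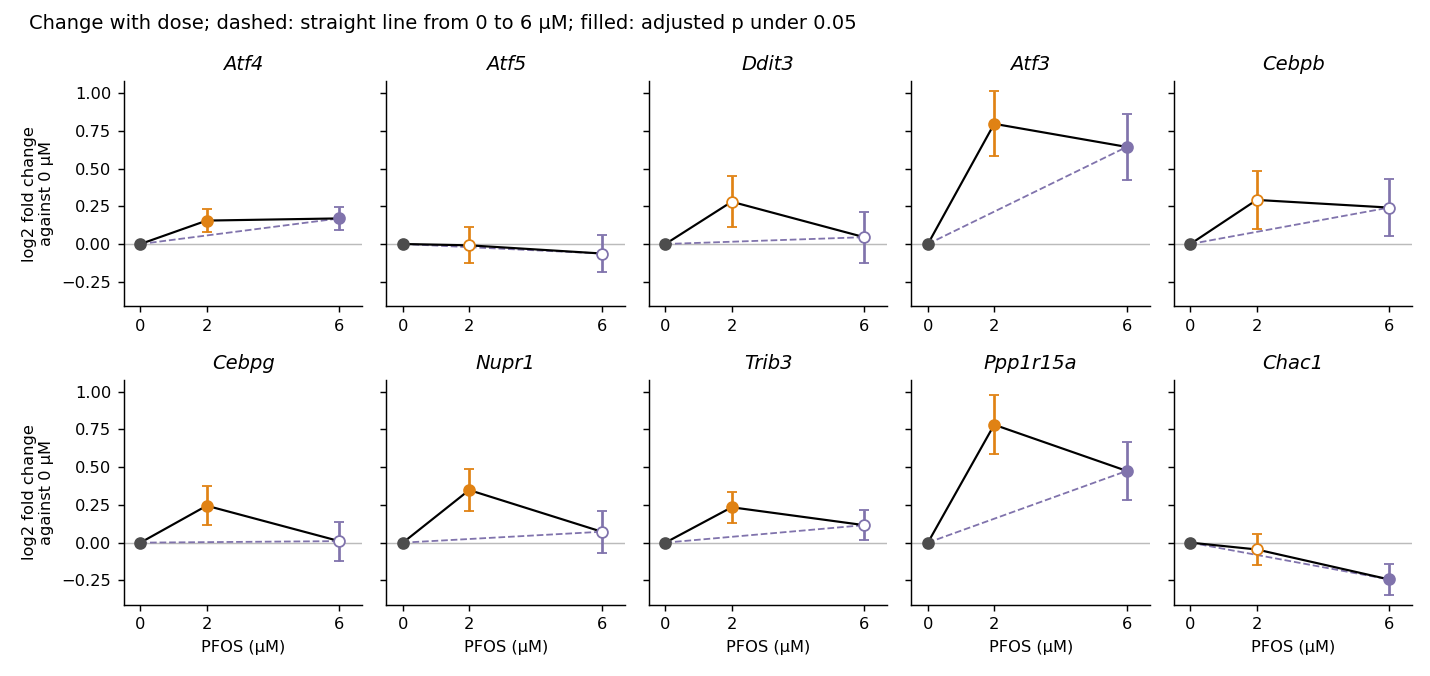
Log2 fold change against 0 µM (vertical axis) at 2 and 6 µM PFOS (horizontal axis, to scale), with 95% intervals from the edgeR fit, filled points at an adjusted p under 0.05 and a dashed straight line from 0 to 6 µM. Most regulators lie above the dashed line at 2 µM, and Chac1 runs along it downwards to -0.24.

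**Figure D3:**
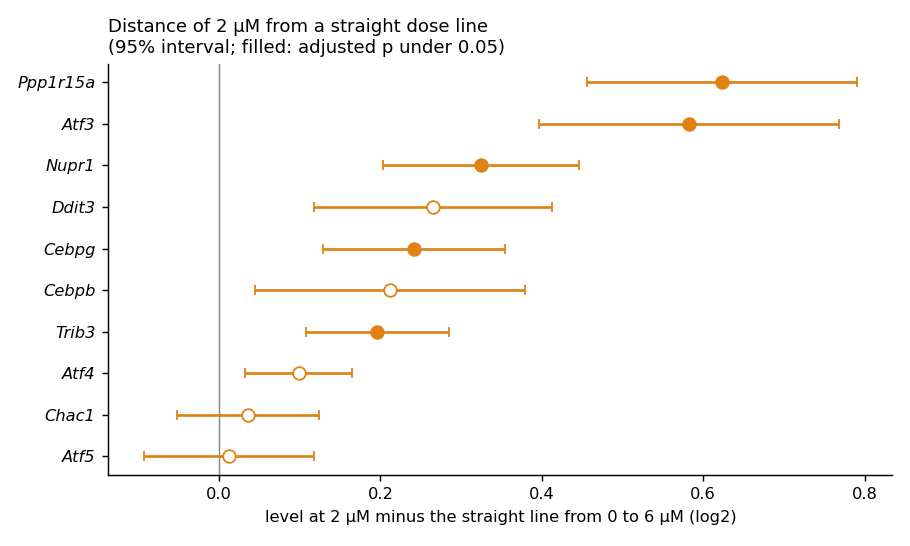
Distance of the 2 µM level from the straight line between 0 and 6 µM (horizontal axis, log2) for each regulator (vertical axis), with 95% intervals and filled points at an adjusted p under 0.05. Ppp1r15a at 0.62 and Atf3 at 0.58 lie farthest from the line, and the intervals of Chac1 and Atf5 include 0.

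Some libraries were high or low for most of the regulators. At 2 µM, replicate 4 was the highest library for 7 regulators and replicate 3 the lowest for 7. At 6 µM, replicate 4 was below the mean of its dose for 10 of 10, with a median deviation of -0.12 on the log2 scale. Without PFOS, replicate 3 was the highest for 7 and replicate 4 the lowest for 8. The regulators share their libraries and are not independent readings of a dose.

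**Figure D4:**
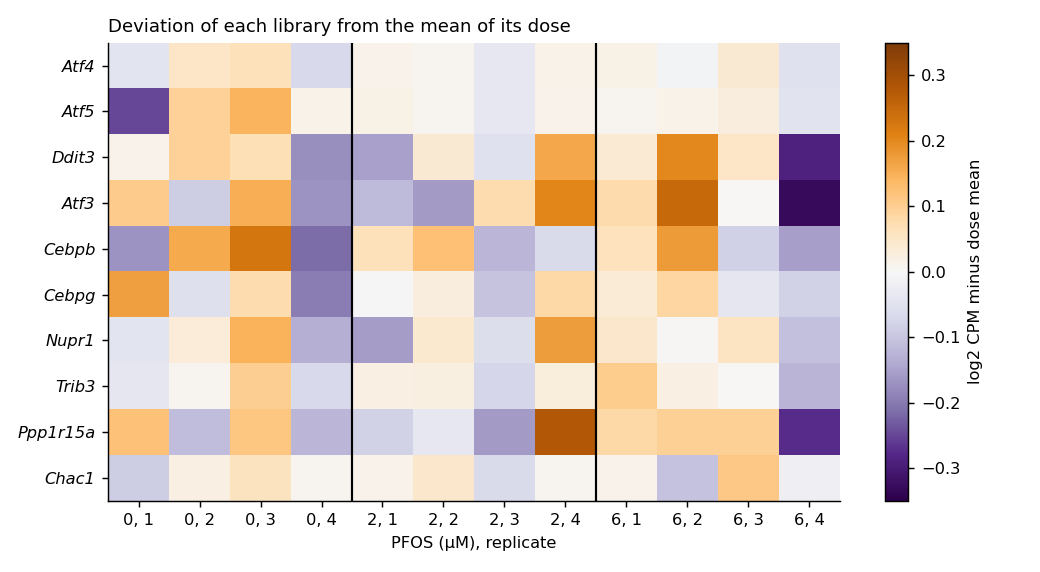
Log2 CPM of each regulator (rows) in each library (columns, dose in µM and replicate) minus the mean of its dose, in colour from -0.35 to 0.35. The column of 6 µM replicate 4 is negative throughout, with a median of -0.12.

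Upstream of these genes, the RNA of the kinases that phosphorylate eIF2α did not pass the test at any dose. Eif2ak1 (HRI, a heme-regulated kinase), Eif2ak2 (PKR, activated by double-stranded RNA), Eif2ak3 (PERK, of the endoplasmic reticulum) and Eif2ak4 (GCN2, activated by uncharged tRNA) had log2 fold changes at 6 against 0 µM of -0.11, -0.04, 0.07 and 0.03 in that order. At 2 against 0 µM these were -0.08, 0.01, -0.12 and -0.0013. Among 9 genes of the kinases and their activators, none was called at 2 µM and 1 fell at 6 µM, where 3.66% of all tested genes fell. This was Impact, which restrains GCN2 activation, with a log2 fold change of -0.26 (adjusted p = 0.0429 by edgeR's quasi-likelihood test), from 31.6 ± 3.08 to 26.5 ± 2.23 CPM. Gcn1, listed in the table as Gcn1l1 and needed for GCN2 activation, had a log2 fold change of 0.13 at 6 µM (adjusted p = 0.0700 by edgeR), and Dele1, which relays mitochondrial stress to HRI, had 0.03 (adjusted p = 0.809).

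Of 12 subunits of eIF2, of its exchange factor eIF2B and of the eIF2α phosphatases, 1 rose at both doses. This was Ppp1r15b, the constitutive counterpart of Ppp1r15a, at 173 ± 8.01 CPM without PFOS, 196 ± 8.15 at 2 µM and 201 ± 8.93 at 6 µM. Its log2 fold changes were 0.18 (adjusted p = 0.0433 by edgeR) and 0.22 (adjusted p = 0.00462). Over all tested genes, 1.61% rose at 2 µM and 4.58% at 6 µM. The eIF2 subunit gene Eif2s3x had 0.11 at both doses (adjusted p = 0.203 and 0.0913 by edgeR), the catalytic subunit gene Ppp1cb had 0.10 and -0.06 (adjusted p = 0.385 and 0.541), and the eIF2B gene Eif2b3 had 0.02 and 0.14 (adjusted p = 0.938 and 0.187).

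Downstream, 42 known ATF4 target genes outside the 10 regulators were followed, mostly of amino acid synthesis, amino acid transport and tRNA charging. This list was chosen with earlier results of these data known. At 2 against 0 µM, 21 rose and none fell, where 1.61% of all tested genes rose and 0.742% fell. At 6 against 0 µM, 18 rose and none fell, where 4.58% of all tested genes rose and 3.66% fell. The median log2 fold change was 0.16 at 2 µM and 0.14 at 6 µM, beside -0.01 and -0.02 over all genes. At 2 µM all 42 had a positive log2 fold change, as had 47.1% of all genes. Between the doses 1 target, Herpud1, was lower at 6 µM, and 3 (Slc3a2, Slc6a9 and Fgf21) lay above the straight line in dose. Over all tested genes, 0.549% were lower at 6 than at 2 µM and 0.374% lay above the line. The count at 2 µM was 5 without 2 µM replicate 4 and again 5 without replicate 4 of both treated doses, 11 when 0 µM replicate 4 was left out, 12 when 0 µM replicate 2 was, 13 when 2 µM replicate 2 was, and also 13 with upper-quartile scaling. At 6 µM it was 11 without 6 µM replicate 1, 12 without 6 µM replicate 3 and 9 without the 3 libraries that deviated most. The count above the line ranged from 0 (without 2 µM replicate 4) to 9 (without 0 µM replicate 1 or 3) when a single library was left out. It was 1 without 0 µM replicate 2 or 4 or 2 µM replicate 3, 2 without 2 µM replicate 2 or 6 µM replicate 1, 3 or 4, and 8 without 6 µM replicate 2, and it was 9 with limma-voom, 12 with no count filter and 19 with DESeq2. The calls off the line over all genes, 70 in the full fit, moved too. They were 13 without 2 µM replicate 4, 91 with limma-voom, 280 with no count filter and 295 with DESeq2. Between the doses 0 targets were called without 2 µM replicate 2, 3 or 4 or 6 µM replicate 1, 3 or 4. In these fits 82 to 107 genes were called in all, against 178 in the full fit.

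The 4 targets with the smallest adjusted p rose at both doses. Wars, a tryptophanyl-tRNA synthetase gene, had 92.6 ± 3.79 CPM without PFOS, 109.7 ± 4.80 at 2 µM and 124 ± 5.80 at 6 µM (SD, n = 4), with log2 fold changes of 0.25 and 0.42 (adjusted p = 0.00992 and 6.38e-06 by edgeR's quasi-likelihood test). The mitochondrial folate enzyme genes Aldh1l2 and Mthfd1l had log2 fold changes of 0.35 and 0.30 at 6 µM and 0.25 and 0.24 at 2 µM. Gars, a glycyl-tRNA synthetase gene, had 0.16 and 0.21 at 2 and 6 µM. None of these 4 genes passed between 2 and 6 µM by edgeR, with adjusted p values of 0.0809, 0.368, 0.544 and 0.611.

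Of 18 genes of the IRE1 and ATF6 branches of the unfolded protein response, 1 rose and 1 fell at 2 µM, and 16 were not called. At 6 µM, 0 rose, 2 fell and 16 were not called. Over all tested genes, 1.61% rose and 0.742% fell at 2 µM, and 4.58% rose and 3.66% fell at 6 µM. The median log2 fold change of the 18 was -0.04 at both doses, beside -0.01 and -0.02 over all genes. Atf6 itself rose at 2 µM (log2 fold change 0.26, adjusted p = 0.00481 by edgeR). Sdf2l1, an endoplasmic reticulum chaperone partner, fell at 2 µM (-0.38, adjusted p = 0.0072 by edgeR) and 6 µM (-0.60, adjusted p = 1.35e-05). Manf, a secreted endoplasmic reticulum stress protein, fell at 6 µM (-0.24, adjusted p = 0.0126 by edgeR), and Herpud1, of endoplasmic reticulum-associated degradation, was lower at 6 than at 2 µM (-0.18, adjusted p = 0.0391). Of 10 mitochondrial stress genes, 4 rose and none fell at each dose, with a median log2 fold change of 0.16 at 2 µM and 0.13 at 6 µM. The protease gene Lonp1 had log2 fold changes of 0.27 and 0.39 (adjusted p = 0.000276 and 7.5e-07 by edgeR), the chaperone gene Hspa9 had 0.26 and 0.32, and the secreted factor gene Fgf21, also an ATF4 target, had 0.46 and 0.30, all called. Hspd1, a chaperonin gene, rose at 6 µM (0.22, adjusted p = 0.00105 by edgeR) and had 0.08 at 2 µM (adjusted p = 0.382).

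Of 7 AP-1 genes, whose products can pair with ATF3, 2 rose at 2 µM and 3 at 6 µM, and none fell. Over all tested genes, 1.61% rose at 2 µM and 4.58% at 6 µM. The median log2 fold change of the 7 was 0.13 and 0.16, beside -0.01 and -0.02 over all genes. Fosl1 had 36.6 ± 4.90, 48.8 ± 1.245 and 54.5 ± 3.12 CPM over the doses, with log2 fold changes of 0.41 (adjusted p = 0.00497 by edgeR) and 0.57 (adjusted p = 3.13e-05). Jun had 0.20 and 0.21 (adjusted p = 0.0486 and 0.0169 by edgeR) and Fosl2 had 0.13 and 0.23 (adjusted p = 0.281 and 0.0112), while Junb had 0.07 and 0.12 (adjusted p = 0.662 and 0.257). Of 14 tested genes of the other C/EBP, ATF and CREB family, Atf6 alone was called. Among 7 tested paralogs of the regulators, Ppp1r15b alone was called, and Cebpd, Jdp2 and Chac2 had adjusted p values of 0.181, 0.246 and 0.360 or more by edgeR in all 3 comparisons.

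The gene outside the regulators whose profile was most like each called regulator was found by the root mean square (RMS) difference of log2 CPM over 12 libraries, each profile centred on its own 0 µM mean, among 10731 genes. Atf4 was nearest to Rpl3, a ribosomal protein gene (RMS 0.0284), and Trib3 to Slc3a2, an amino acid transporter subunit gene and ATF4 target (0.0455). Cebpg was nearest to Cth, of cysteine synthesis and also an ATF4 target (0.0491), and Chac1 to Csrp1, a muscle LIM protein family gene (0.0507). Nupr1 was nearest to Timp3, a metalloproteinase inhibitor gene (0.0813), Atf3 to the kinase gene Dyrk4 (0.150) and Ppp1r15a to Kctd16 (0.170). Among the called regulators, Atf3 and Ppp1r15a were each the nearest to the other (0.137), as were Atf4 and Trib3 (0.0690).

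Several of these mRNAs are known to be controlled through short reading frames in the 5′ leader, which RNA counts do not show. In the GENCODE M21 transcript with the longest coding sequence, the Ppp1r15a leader of 764 bases held 7 upstream ATG codons, that of Atf4 (594 bases) held 3, and those of Atf5 and Ddit3 held 2 each. For Ppp1r15a, Atf4 and Atf5, 1 upstream frame ran into the main coding sequence. Atf3, Cebpg and Nupr1 had 1 upstream ATG each, and Cebpb, Chac1 and Trib3 had 0. Over 12770 tested genes, 50.2% had at least 1 upstream ATG, 16.2% had an overlapping frame, and the median leader was 170.0 bases.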

How the data were processed

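The authors deposited unnormalized gene counts for 12 libraries in 1 table. The submitters' processing notes name HISAT2, an aligner, and the build GRCm39. The counter, strand setting and annotation release are not given there. Gene coordinates in the deposited table equal those of GENCODE M21 (GRCm38) for 53585 of 54495 shared genes (98.3%), including all 11 rows of the regulators, so they are given as GRCm38.

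Counts were tested with edgeR 4.0.16 (R 4.3.3): TMM scaling, filterByExpr, and a quasi-likelihood fit of a mean per dose over all 12 libraries (9 residual degrees of freedom). Tests were 2 against 0, 6 against 0, 6 against 2 µM and the distance of 2 µM from a straight line in dose, with Benjamini-Hochberg adjustment over 16038 genes and a threshold of 0.05. CPM use TMM-scaled totals. The steps were tested on simulated data in which each changed gene had the same fold change at 2 and 6 µM. No simulated gene differed between these doses, so the recovery of such differences was not checked.

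The regulators, gene lists and tests were chosen with earlier results of these data known. Text names all 10 regulators, the eIF2α kinase genes, Ppp1r15b, at most 4 genes of each list by smallest adjusted p, and the gene most like each called regulator. Genes named beyond this, Slc6a9 and the nearest genes' runners-up, were chosen after their values were seen. Alternatives were other scalings, DESeq2 1.42.0, limma-voom (limma 3.58.1), other count filters, a replicate block, only the 2 doses compared, equally spaced doses, each library left out, and the 3 most deviating libraries left out. Leaving out replicate 4 of both treated doses was added after the data were seen. Over all tested genes, same-numbered libraries did not clearly deviate together. Figures were drawn with matplotlib.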

Additional observations from a re-analysis of the deposited data

Results flagged for a closer look

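Of 30 groups of 4 libraries (10 regulators at 3 doses), 4 held a library whose gap to the nearest other, over the range of the group, passed Dixon's 95% critical value. Chance flags about 1 in 20 groups. The groups of a dose share their libraries and are not independent, so the 4 flags cannot be set against that rate. Replicate 3 at 2 µM was low for Atf4, at 1002.9 CPM beside 1034 to 1039 in the others, for Atf5, at 297 beside 307 to 309 CPM, and for Trib3, at 244 beside 261 to 262 CPM. Replicate 4 at 6 µM was low for Ppp1r15a, at 41.7 beside 53.3 to 54.0 CPM.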

How the results depend on the processing

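No regulator's called change reversed over 880 combinations of result and alternative. Of these, 786 kept their side of the threshold, 68 lost and 26 gained it. Leaving out 1 library gave 3 to 7 regulators called at 2 against 0 µM, 4 to 5 at 6 against 0, 0 to 3 at 6 against 2, and 2 to 6 off the dose line. Over all genes it gave 106 to 490, 918 to 1343, 82 to 259 and 13 to 167 calls, against 377, 1322, 178 and 70. Without replicate 4 of both treated doses, 2, 0 and 2 regulators were called at 2 against 0 µM, at 6 against 2 µM and off the line, with 79, 51 and 13 genes in all. Without the 3 most deviating libraries, 0 regulators were called at 6 against 2 µM, and the gene counts were 710 at 6 against 0 µM and 163 off the line. DESeq2 called 4 regulators at 6 against 2 µM, and 751, 445 and 295 genes at 2 against 0, 6 against 2 and off the line. With no count filter, 5 regulators were called at 6 against 2 µM, and 631, 401 and 280 genes in those comparisons. With only the 2 doses compared, 307 genes were called at 6 against 2 µM. Equally spaced doses gave 3 regulators and 41 genes off the line, and upper-quartile scaling gave 3 regulators off the line. At 2 against 0 µM, upper-quartile scaling gave 184 genes higher and 134 lower, beside 258 and 119. At 6 against 0 µM it gave 598 higher and 662 lower, beside 735 and 587, so which direction held more genes depended on the scaling. The cause of these shifts was not tested.

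Replicate numbers showed no clear pairing over all tested genes: correlations of deviations for equal numbers ran from -0.028 to 0.037, and 5 of 12 libraries correlated best with their own number. Genes of low and high counts weigh alike here, so pairing among well-counted genes alone was not checked. With a replicate block, 6, 4, 0 and 3 regulators were called at 2 against 0, 6 against 0, 6 against 2 µM and off the line, and 273, 1154, 123 and 34 genes.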

Other observations

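Genes next in likeness to the regulators, chosen from the likeness order after their values were seen, included 3 secreted or matricellular and inflammatory genes. Grem1, a BMP antagonist gene, was second nearest to Atf3 and had log2 fold changes of 0.57 at 2 µM and 0.60 at 6 µM (adjusted p = 0.000272 and 2.54e-05 by edgeR's quasi-likelihood test). Ptgs2, which encodes cyclooxygenase-2, was second nearest to Ppp1r15a, with 0.57 and 0.33 (adjusted p = 0.000103 and 0.00428). Cyr61, a matricellular gene, was also near Nupr1, with 0.43 at 2 µM (adjusted p = 2.38e-05 by edgeR), 0.08 at 6 µM (adjusted p = 0.371), and -0.35 between the doses (adjusted p = 0.000188).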
